A study of Mus musculus with 4 samples.

Results

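Tcm cells are the CD8+ T cells of mouse bone marrow (BM) that carry the deposited cluster name Tcm, for central memory T cell. They were taken by that name alone, and they numbered 3418 of 11754 cells, next to 1342 cells named Tn (naive T cell) and 1891 named transitory Teff (transitory effector T cell). Libraries 1 to 4 held 1184, 465, 382 and 1387 Tcm cells, with 3010961 to 10601988 UMIs (unique molecular identifiers, which count RNA molecules) in Tcm cells per library. The recipients were mice on the C57BL/6 background, wild type or CRBN transgenic (carrying a modified cereblon that lets lenalidomide act in mice), that received BM and T cells from genetically matched donors. The methods of the study describe adult females carrying Vk12653 myeloma. The labels give neither age nor the genotype of each pool. The 4 treatments were isotype control (cIg) with vehicle, αTIGIT with vehicle, cIg with lenalidomide, and αTIGIT with lenalidomide. Antibody was given from the day of transplant and lenalidomide from day 14, and CD8+ T cells were sorted from BM on day 28. Each treatment was 1 library of 5 pooled mice. The deposited library numbers are not tied to a treatment, so no treatments were compared and values are given with their range over the 4 libraries.

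A central memory CD8+ T cell has met antigen or homeostatic cytokine before, recirculates through lymphoid tissue, and is usually recognised by CCR7 and the receptors for IL-7 and IL-15. NK receptors are the activating and inhibitory surface proteins by which NK cells read MHC class I and stress ligands. Some memory CD8+ T cells, among them cells that acquired memory features without foreign antigen, carry these receptors as well. Ly49 proteins, encoded by the Klra genes, are the main MHC class I receptors of mouse NK cells, and most of them inhibit the cell through an ITIM. FcRγ (Fcer1g) and DAP12 (Tyrobp) are adaptor proteins with an ITAM that pass on the signals of activating receptors, and Helios (Ikzf2) is a transcription factor of the Ikaros family.

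The Ly49 genes lie side by side on chromosome 6 and carry much the same sequence near their start sites. RefSeq start-site windows (GRCm38.p6, 250 bases before to 50 bases after each start) were matched for all 11 Ly49 genes of the count table. In 9 of these windows the letters TTTCCTC open a closely related stretch of 30 bases, which is shown here on the minus strand, the strand of the genes, for 3 genes above the level filter in Tcm cells and 2 below it. Capitals mark CTTTGAT, the core recognised by TCF-1 and LEF-1, the factors encoded by Tcf7 and Lef1.
Klra6, chr6:130027044-130027073: tttcctctttttgCTTTGATgaagaggagg
Klra7, chr6:130233382-130233411: tttcctctttttgCTTTGATgaagaggagg
Klra3, chr6:130337616-130337645: tttcctctttttgctttggtgacgaggagg
Klra9, chr6:130193121-130193150: tttcctctttttgctttgttgacaaggagg
Klra8, chr6:130129949-130129978: tttcctcttttcgatttggtcaagaggagg
The stretch of Klra6 was identical to that of Klra7 in all 30 bases, whereas Klra3, Klra9 and Klra8 matched Klra7 at 28, 27 and 26 of them. The stretch lies 119 to 90 bases before the start of Klra6 and 89 to 60 bases before that of Klra7. CTTTGAT was found in both of these windows and in none of the other 9, with both strands searched, and it was present in 3.73% of all 32817 windows. The windows of Klra1 and Klra10 do not hold TTTCCTC. A match of letters is a description of the window and not evidence of binding. Because the Ly49 genes are so alike, the assignment of reads among them is less certain than their sum.

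Whether the Tcm name fits was examined first, with the markers of a central memory CD8+ T cell. Levels are counts per 1000000 UMIs (CPM) over all cells of a cluster, with 95% exact Poisson intervals that cover counting error only. Il2rb, the IL-2 and IL-15 receptor β chain, was at 965 CPM in Tcm cells (953 to 977), 458 CPM in Tn cells and 503 CPM in transitory Teff cells. Cxcr3, a receptor for chemokines induced by IFN-γ, was at 285 CPM against 164 CPM, and Eomes, a T-box factor of memory and NK cells, at 160 CPM against 105 CPM. Bcl2, which protects from apoptosis, was at 402 and 424 CPM, with overlapping libraries. These markers were present as the name requires.

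By contrast, 2 defining markers were low. Ccr7, the receptor for lymph node entry, was at 27.5, 27.8, 31.2 and 23.5 CPM in Tcm cells of libraries 1 to 4 and at 228, 245, 238 and 199 CPM in Tn cells. Il7r, the IL-7 receptor, was at 15.7, 44.1, 52.5 and 19.8 CPM in Tcm cells and at 406, 394, 470 and 324 CPM in Tn cells. Both genes were lower in Tcm cells of every library than in Tn cells of any library. Ccr7 was at 26.3 CPM in Tcm cells and 25.1 CPM in transitory Teff cells. The data therefore go against the name in these genes, and Tcm is used here as the deposited name of the cluster. The Tn cluster held 4557 CPM of Ccl5, a chemokine gene of memory and effector T cells.

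Markers of other cell types were examined next, and several T cell and NK lists had higher sums in Tcm than in Tn cells. Cd4 and Ms4a1 had no UMI, and Foxp3, the factor of regulatory T cells, and Zbtb16, the factor of NKT cells, were at 0.039 and 0.273 CPM. The NK cell receptor gene Ncr1 was at 4.92 CPM, and Trdc, the constant region of the TCR δ chain, at 7.73 CPM in Tcm and 7.80 CPM in Tn cells. Summed macrophage markers ranged from 12.2 to 24.2 CPM over libraries in Tcm cells and from 11.6 to 16.4 CPM in Tn cells, with 6 of 12 at or below 1 CPM in Tcm cells. Of 16 NK cell markers, 6 passed the level filter described below and 4 were higher in Tcm than in Tn cells (Klrb1c, Klre1, Tyrobp and Fcer1g), with a summed level of 1230 to 1444 CPM against 267 to 331 CPM. Cma1 and Khdc1a, found in NK cells, had no UMI. The γδ T cell list had 3 of 3 genes above the filter higher (Trgv2, Tcrg-C2 and Tcrg-C4), with summed levels of 315 to 467 CPM in Tcm and 46.6 to 80.8 CPM in Tn cells. The innate-like T cell list had 3 of 4 higher (Cd160, Fcer1g and Xcl1), with 1223 to 1374 CPM against 217 to 294 CPM. In the NKT list 1 of 3 was higher (Klrb1c), with 352 to 421 CPM against 122 to 202 CPM, and in the regulatory T cell list 1 of 1 (Ikzf2), with 197 to 294 CPM against 47.9 to 88.7 CPM. The lists share Klrb1c, Fcer1g and Ikzf2 with the markers of the Tcm cluster. By the same rule 2.34% of all 2611 genes compared with Tn cells were higher. Against all other cells the NK cell list had 4 of 8 genes higher and 2 lower, and the γδ list had 0 of 3 higher. In that comparison 2 of 4 genes of the innate-like list, 1 of 3 of the NKT list and 0 of 1 of the regulatory T cell list were higher. Of all 2987 genes compared with all other cells, 1.27% were higher and 4.62% were lower. A UMI of a macrophage, B or plasma, neutrophil or erythroid marker was found in 65.1% of Tcm and 63.9% of Tn cells, and the part of other cell types in the results was not tested. The study sorted CD8+ T cells, and Cd3e was at 971 CPM in Tcm cells. Reads of the T cell receptor were called in 2700 Tcm cells.

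NK receptor genes were far higher in Tcm than in Tn cells, as the plot of marker levels by library shows. Klrb1c, which encodes NK1.1, had 225, 231, 232 and 263 CPM in Tcm cells of libraries 1 to 4 and 8.21, 7.99, 12.3 and 12.7 CPM in Tn cells. The groups did not overlap, and the level in Tcm cells was 23.2-fold that in Tn cells (95% conditional binomial interval 19.2 to 28.1). Klra7 (Ly49G) had 307, 342, 319 and 316 CPM in Tcm cells and 15.2, 27.2, 22 and 32 CPM in Tn cells, a 12.9-fold difference (11.5 to 14.7). Its libraries lay close together in Tcm cells, while Tn cells of library 4 had more than those of library 1. Klra6 (Ly49F) had 115, 129, 98.0 and 122 CPM against 10.2, 23.2, 11.9 and 14.0 CPM, an 8.02-fold difference (6.83 to 9.46). Library 3 was lowest for Klra6 in Tcm cells, far above any Tn value.

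**Figure D1:**
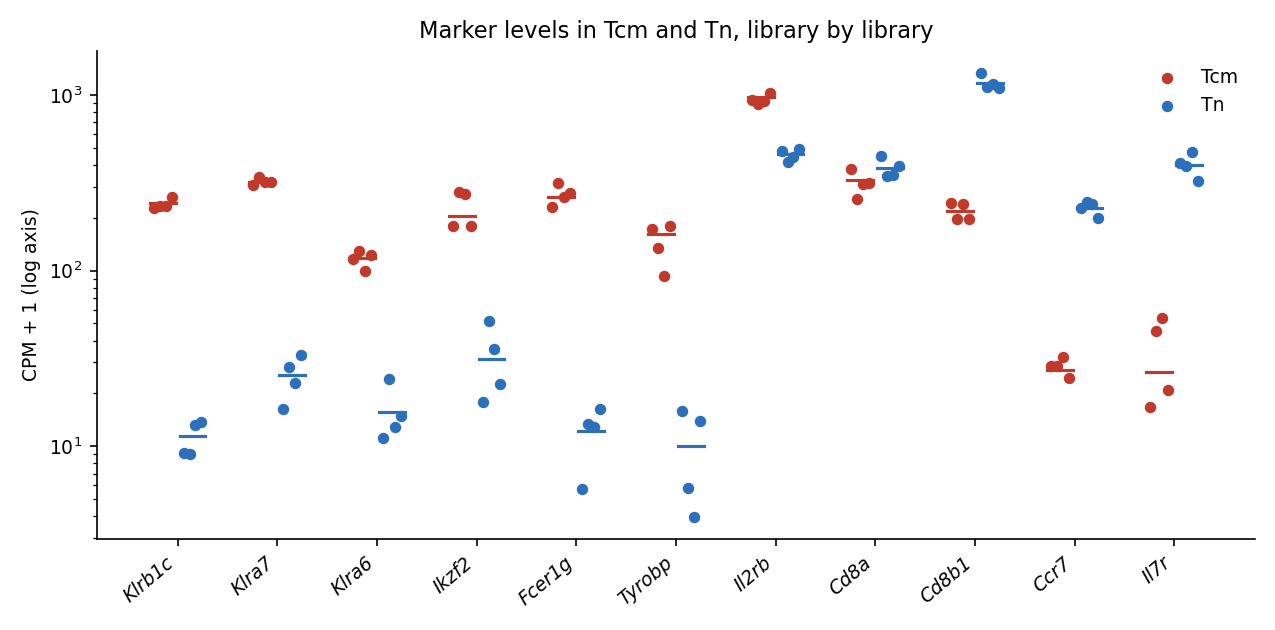
CPM plus 1 on a log axis for 11 genes in Tcm (red) and Tn (blue) cells, with 1 point per library and a bar at the level over all cells of the cluster. The first 6 genes and Il2rb are higher in every Tcm library, Cd8b1, Ccr7 and Il7r are lower in every Tcm library, and Cd8a overlaps.

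The adaptor gene Fcer1g had 229, 315, 261 and 274 CPM in Tcm cells and 4.69, 12.4, 11.9 and 15.2 CPM in Tn cells. This was a 23.3-fold difference (19.5 to 28.1), with library 1 lowest in both clusters. Tyrobp, the other ITAM adaptor, had 172, 134, 91.7 and 178 CPM against 14.9, 4.79, 2.98 and 13 CPM. Libraries 2 and 3 were lower than libraries 1 and 4 for Tyrobp in both clusters. Ikzf2 had 178, 279, 270 and 178 CPM in Tcm cells and 16.8, 50.3, 35 and 21.6 CPM in Tn cells, a 6.66-fold difference (5.96 to 7.47). Here libraries 2 and 3 were the higher ones, again in both clusters. The clusters were built from these values, so the difference in a marker between clusters is a description and was not tested.

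Across all genes, a log2 ratio of CPM was computed after adding 10 CPM to both sides, for genes of at least 50 CPM in either cluster. A gene was counted as higher or lower when the ratio was at least 2-fold and no library went the other way. Of 2611 genes compared with Tn cells, 61 (2.34%) were higher in Tcm cells and 21 (0.804%) were lower. The median log2 ratio over all 2611 genes was 0.10.

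Of the 13 Ly49 genes listed, 11 were in the count table and 4 reached 50 CPM, all of which were higher (Klra1, Klra3, Klra6 and Klra7, median log2 ratio 2.27). Klra1 (Ly49A) was at 93.9 CPM against 13.1 CPM in Tn cells and Klra3 (Ly49C) at 103 CPM against 27.6 CPM, so that Klra3 had the smallest ratio of the 4 with a log2 ratio of 1.59. Klra9 (Ly49I) was below the filter at 31.4 CPM against 2.39 CPM. The activating receptors Klra8 (Ly49H) and Klra4 (Ly49D) had 7.49 and 0.507 CPM in Tcm cells, and Klra4 had 2.11 CPM in Tn cells. The Ly49 genes that were higher all encode inhibitory receptors.

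Other NK receptor genes moved in the same direction. Of 10 members above the filter 7 were higher and none was lower, and the remaining 3 (Il18rap, Klrd1 and Cd226) had log2 ratios from 0.43 to 0.98. Klrk1, which encodes the stress receptor NKG2D, had 503, 360, 443 and 533 CPM in Tcm cells and 66.5, 45.2, 60.3 and 76.4 CPM in Tn cells. Klre1 had 352, 340, 335 and 399 CPM against 51.6, 45.6, 38.7 and 63.7 CPM. Neither gene overlapped between the clusters. Klrc1, which encodes inhibitory NKG2A, was at 461 CPM against 93.6 CPM, its activating relative Klrc2 at 93.7 CPM against 12.6 CPM, and the HVEM receptor Cd160 at 472 CPM against 75.1 CPM. Klrd1, which encodes the CD94 partner of NKG2 proteins, was at 492 CPM against 323 CPM. Klrg1, a receptor of late effector cells, was at 1.56 CPM in Tcm and 34.8 CPM in transitory Teff cells. Among the adaptors, Hcst (DAP10, the partner of NKG2D) had a log2 ratio of 0.72 and the 4 CD3 and ζ chain genes between -0.04 and 0.31, so Fcer1g and Tyrobp were the 2 of 7 adaptor genes that passed the 2-fold rule.

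The remaining genes furthest above Tn, by the ranking shown in the plot of ratios, were of mixed function. Xcl1, a chemokine that draws cross-presenting dendritic cells, had 567, 468, 451 and 555 CPM in Tcm cells and 78.6, 71.5, 61.8 and 107 CPM in Tn cells. Cym, the gene of the gastric protease chymosin, was at 75.6 CPM against 4.86 CPM, and Serpina3g, a serine protease inhibitor, at 285 CPM against 45 CPM. Asb2, a ubiquitin ligase subunit, and Ccdc136 had log2 ratios of 2.37 and 2.29. Trgv2, a variable segment of the TCR γ locus, was at 206 CPM against 28.7 CPM, and the γ constant genes Tcrg-C2 and Tcrg-C4 were at 59.97 against 9.27 CPM and 51.7 against 6.24 CPM. Trgv2 was at 322 CPM in TIM-3+ Tex cells.

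**Figure D2:**
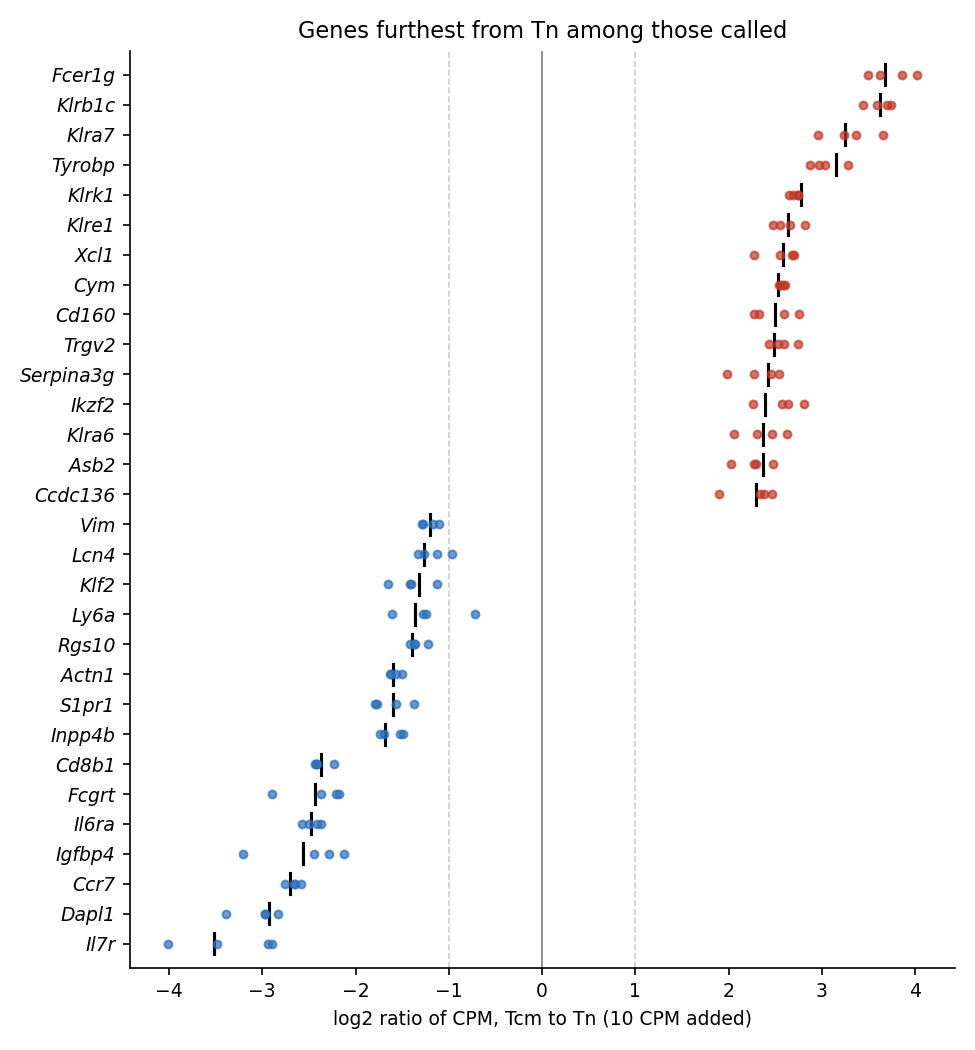
Log2 ratio of CPM in Tcm to Tn (10 CPM added to both) for the 15 highest and 15 lowest genes among those that passed the 2-fold rule. Points are single libraries, black ticks are all cells together, and dashed lines mark 2-fold. All points lie on 1 side of 0 for each gene, which the rule requires, and Il7r has the widest spread, from -4.01 to -2.90.

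Genes lower in Tcm than in Tn cells included the CD8 β chain. Cd8b1 had 242, 196, 237 and 196 CPM in Tcm cells and 1331, 1102, 1146 and 1098 CPM in Tn cells, or 5.38-fold more in Tn (5.21 to 5.55). The other clusters had from 934 to 1327 CPM. Cd8a, whose product pairs with CD8β or with itself, had 379, 256, 312 and 314 CPM in Tcm cells and 446, 343, 350 and 394 CPM in Tn cells. These ranges overlap, although Cd8a was below Tn within each library. No UMI of Cd8a was found in 691 Tcm cells, although the methods name expression of Cd8a as a filter.

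Of 16 genes of the naive and lymph node homing list above the filter, 9 were lower and none was higher, with a median log2 ratio of -1.23. Besides Il7r and Ccr7 these were Dapl1, Igfbp4, Il6ra, S1pr1, Actn1, Klf2 and Lef1. S1pr1, the receptor for exit from tissue into blood, was at 24.5 CPM against 94.8 CPM, and its activator Klf2 at 216 CPM against 555 CPM. Igfbp4, a binding protein of insulin-like growth factors, was at 0.195 CPM against 50.5 CPM, and Il6ra, the IL-6 receptor, at 1.09 CPM against 51.6 CPM. Tcf7, which naive and central memory cells share, had a log2 ratio of -0.45, and Lef1 was at 86.8 CPM against 203 CPM.

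Beyond this list, Fcgrt, the neonatal Fc receptor, was at 4.21 CPM against 66.9 CPM, and Inpp4b, a lipid phosphatase, at 28.5 CPM against 113 CPM. Rgs10, Lcn4 and Vim had log2 ratios of -1.39, -1.27 and -1.20. Ly6a, which encodes Sca-1, was at 72.8 CPM against 203 CPM. None of the 12 interferon-induced genes above the filter was higher, and Ly6a was the 1 that was lower, while Gbp4 and Zbp1 had log2 ratios of 0.77 and 0.76.

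Among 20 genes of the memory and innate-like memory list above the filter, 4 were higher (Il2rb, Ccl5, Xcl1 and Ikzf2) and 1 was lower (Ly6a), with a median log2 ratio of 0.51. Of 11 effector genes above the filter, 6 were higher, with a median of 1.01: Xcl1, Ccl3, Ccl4, Ccl5, the death ligand gene Fasl (122 against 41.1 CPM) and Gzmb (119 against 45.1 CPM). Gzma, Gzmk and Ifng stayed under 50 CPM in both clusters, and Prf1 (perforin) had a log2 ratio of -0.26. Of the 17 transcription factors above the filter, Ikzf2 and Bhlhe40 were higher, Klf2 and Lef1 were lower, and the T-box genes Eomes and Tbx21 had log2 ratios of 0.56 and 0.66. Ikaros (Ikzf1) and Aiolos (Ikzf3), targets of lenalidomide through cereblon, had log2 ratios of -0.09 and 0.56.

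Chemokine and egress receptors were divided. Ccr2, a receptor for inflammatory chemokines, was higher (184 against 77.6 CPM), and Ccr7, S1pr1 and Gpr183 were lower. Of 14 cytokine receptors, Il2rb was higher and Il7r and Il6ra were lower, while the common γ chain gene Il2rg had a log2 ratio of 0.23. Cish, a feedback inhibitor of cytokine signalling, was the 1 of 5 SOCS-related genes that was higher (86.8 against 30.5 CPM). All 15 MHC class I genes lay above 0, with log2 ratios of 0.21 (B2m) to 0.89 (Nlrc5, the class I transactivator), but none reached 2-fold. Their median was 0.42, beside 0.10 over all 2611 genes compared with Tn cells. Against transitory Teff cells 5 of the 15 lay above 0 (median -0.08), and against all other cells 4 of 15 (median -0.03). In the glycolysis list none of 11 genes passed, with a median of 0.10, and no cell cycle gene reached 50 CPM in either cluster. Inhibitory signalling genes gave 1 of 5 higher, Lilr4b (87.3 against 16.5 CPM), and costimulation genes 1 of 11, Cd7 (722 against 163 CPM).

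Detection in single cells was compared after drawing 2500 UMIs at random from every cell, because the median Tcm cell had 6958 UMIs and the median Tn cell 7834. At this depth 68.3% of Tcm cells held a UMI of a Ly49 gene (Clopper-Pearson 95% interval 66.7% to 69.9%), with 68.2%, 71.2%, 66.2% and 68.0% in libraries 1 to 4. The share was 11.9% in Tn cells (10.3% to 13.9% over libraries) and 7.62% in transitory Teff cells, and it was 26.6% in GzmA+ Tex cells, the next highest cluster. No Tcm library came near a library of another cluster, the highest of which was 31.9%. With all UMIs, 86.3% of Tcm cells and 22.4% of Tn cells held a Ly49 UMI. Free RNA in droplets gives UMIs in any cluster, and the lowest share, that of transitory Teff cells (median 5545 UMIs), stands as the comparison for it.

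**Figure D3:**
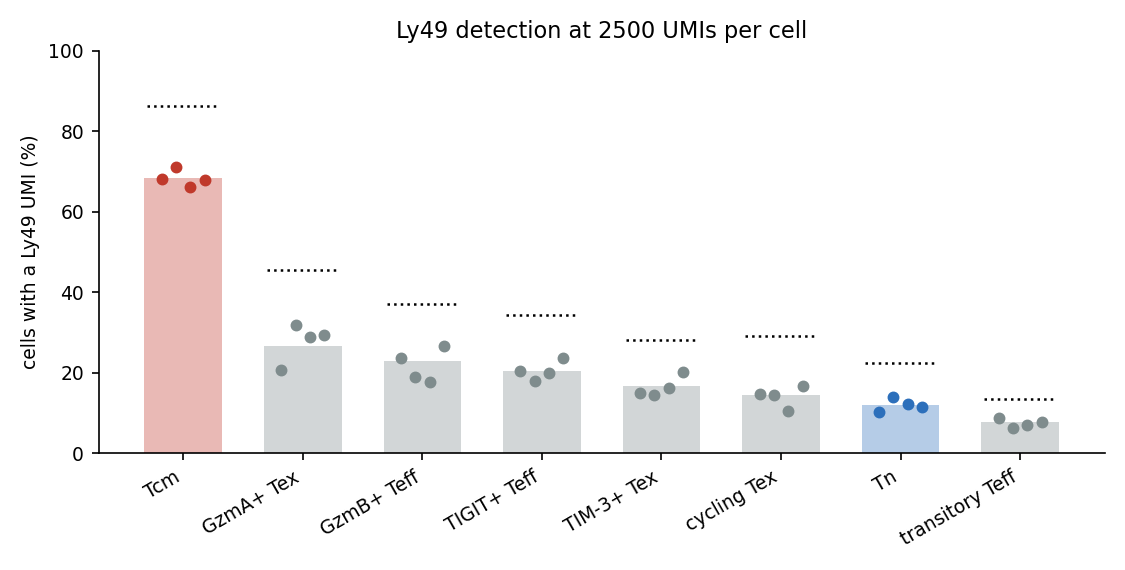
Share of cells with at least 1 UMI of any Ly49 gene in the 8 clusters after thinning each cell to 2500 UMIs. Bars are all cells of the cluster, points are the 4 libraries, and dotted lines give the share with all UMIs. Tcm stands at 68.3%, and the other clusters lie between 7.62% and 26.6%.

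Single Tcm cells often held UMIs assigned to more than 1 Ly49 gene. With all UMIs, 1077 Tcm cells held UMIs of 1 Ly49 gene, 1120 of 2 genes, 603 of 3 genes, and 149 of 4 or 5 genes, and 469 held none. After thinning, 27.1% of Tcm cells and 1.86% of Tn cells held 2 or more. Klra3 and Klra1 were detected in 16.2% and 15.5% of thinned Tcm cells and together in 0.936%, where the product of the shares is 2.51%. The ratio of the joint share to the product was 0.372 over all libraries and did not exceed 0.457 in any library. Klra6 and Klra3 were found together in 4.94% of cells, where the product is 3.37%, and this ratio was between 1.41 and 1.71 in each library. These are shares of sparse counts in the same cells and are given without a test. The number of genes per cell and the joint shares also rest on the assignment of reads among these similar genes. That assignment is less certain than their sum, and its part in these values was not tested.

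The other markers were also spread over many cells rather than a few. Klrb1c was detected in 41.2% of thinned Tcm cells and 2.38% of Tn cells, Fcer1g in 35.5% and 1.49%, Ikzf2 in 37.0% and 5.29%, and Klrk1 in 61.6% and 11.2%. Other clusters came closer for some of these genes. At the same depth Klrb1c was detected in 12.3% and Fcer1g in 34.9% of GzmA+ Tex cells. Ikzf2 was detected in 36.5% and Klrk1 in 44.0% of thinned TIGIT+ Teff cells. With all UMIs, 62.8% of Tcm cells held at least 3 of the 5 genes Klrb1c, Klra7, Klra6, Ikzf2 and Fcer1g, against 2.76% of Tn cells and 3.91% of transitory Teff cells. At the same setting 6.20% of Tcm cells held none of them. Cd8b1 was detected in 30.4% of thinned Tcm cells and 87.6% of Tn cells.

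Against transitory Teff cells, 46 of 2826 genes were higher in Tcm cells (1.63%) and 76 were lower (2.69%). The median log2 ratio over these genes was -0.09, and with ratios centred on it 59 were higher and 62 lower. The highest ratios again belonged to NK receptors and adaptors: Klra7 at 317 against 19.6 CPM, Klrb1c at 242 against 15.3 CPM, then Fcer1g, Klra6, Tyrobp, Cym, Klra1 and Klrc2. Rnf130, a ubiquitin ligase gene, and Tmem108 followed with log2 ratios of 2.13 and 1.96. Among naive and homing genes, Satb1, Il4ra and Rflnb were higher than in transitory Teff cells, and Il7r, S1pr1, Actn1 and Klf2 were lower.

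The genes furthest below transitory Teff cells were those of activation and cytotoxicity. Pdcd1 (PD-1) was at 8.66 CPM against 256 CPM, Lag3 at 17.3 against 316 CPM and Tigit at 39.5 against 338 CPM, and 6 of 8 exhaustion genes above the filter were lower with none higher. Gzmk (30.5 against 507 CPM) and Gzma (44.2 against 587 CPM) were also lower, as were Lgals3 (galectin-3), S100a4, Ier3, Rgs16 and Ifi27l2a, with log2 ratios between -3.53 and -2.66. Of 14 effector genes 8 were lower and 1, Gzmm, was higher. Against Tn cells no exhaustion gene was lower, and Bhlhe40 was the only one higher of the 2 above the filter. Cd8a was at 328 CPM in Tcm and 726 CPM in transitory Teff cells.

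Compared with all other cells together, 38 of 2987 genes were higher (1.27%) and 138 were lower (4.62%). The median log2 ratio was -0.15, and centring on it gave 50 higher and 106 lower. The 10 highest were Klrb1c, Klra7, Klra6, Klra1, Cym, Fcer1g, Rnf130, Klrc2, Tyrobp and Ccdc136. Not all of them were equally low elsewhere. Fcer1g was at 232 CPM and Tyrobp at 209 CPM in GzmA+ Tex cells, close to or above the 263 and 160 CPM of Tcm cells, and Ikzf2 was at 233 CPM in TIGIT+ Teff cells. In GzmA+ Tex cells 98.6% of cells held a UMI of a macrophage, B or plasma, neutrophil or erythroid marker, and macrophages also use Fcer1g and Tyrobp; the part of these cells in the GzmA+ Tex values was not tested. Klrb1c and the 4 Ly49 genes were no higher than 88.6 CPM in any other cluster.

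Tcm cells were then divided by whether a Ly49 UMI was detected, 2949 with and 469 without. No gene outside the Klra family was 2-fold higher in the cells with a Ly49 UMI among 2607 genes (0%), and 1, Ly6a, was lower (0.0384%), at 62.8 CPM against 144 CPM. Without library 2 no gene passed (0 genes). Cells with a Ly49 UMI had more Fcer1g (280 against 142 CPM), Ccl4 (183 against 92.0 CPM), Ccl3, Ikzf2 and Klrb1c, with log2 ratios from 0.56 to 0.93 that were positive in each library. They had less Cd8b1 (198 against 352 CPM) and Cxcr6, with log2 ratios of -0.80 and -0.54. The median cell had 7037 UMIs with and 6491 UMIs without Ly49. With detection and levels both taken at 2500 UMIs per cell, the ratio was -0.76 for Ly6a, -0.50 for Cd8b1 and 0.65 for Fcer1g. Thinning also reduced the ratio of Ccl4 to 0.34 and that of Ccl3 to 0.16.

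**Figure D4:**
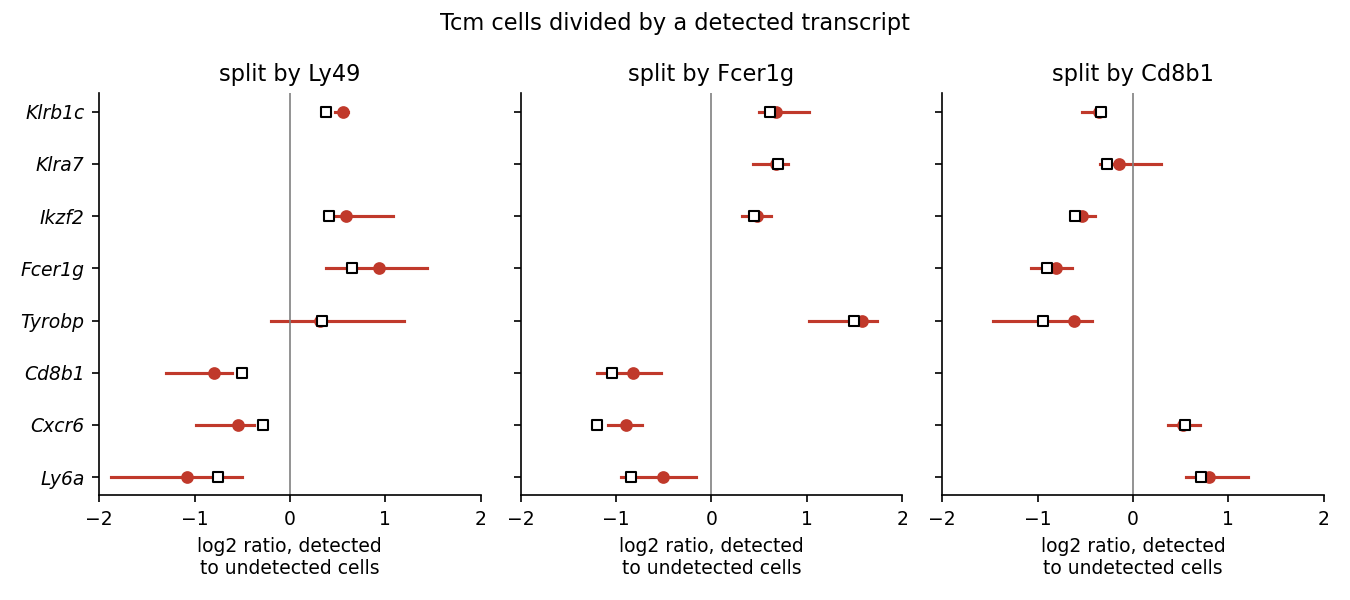
Log2 ratio of CPM (10 CPM added) between Tcm cells with and without a UMI of any Ly49 gene, of Fcer1g or of Cd8b1. Red points are all cells with lines for the range over 4 libraries, and white squares are values at 2500 UMIs per cell, with the gene used for the division left out. Among the genes shown in a panel, Cd8b1, Cxcr6 and Ly6a lie opposite to Fcer1g and Ikzf2.

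The same division was made by Fcer1g and by Cd8b1, which were chosen after their values were seen. Tyrobp was 2-fold higher in the 1724 cells with an Fcer1g UMI than in the 1694 without (242 against 74.5 CPM), and it was the single gene of 2610 that passed (0.0383%). Klrb1f, Klra7, Itga4 and Klrb1c followed with log2 ratios of 0.95 to 0.68. Cxcr6, a chemokine receptor of tissue-resident cells, had 89.4 CPM with and 175 CPM without Fcer1g, and Cd8b1 had 155 and 281 CPM. The median UMI number was 6915.5 with and 6991.5 without.

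By Cd8b1, with 1777 and 1641 cells, none of 2598 genes reached 2-fold in either direction (0%). Fcer1g had 196 CPM in cells with a Cd8b1 UMI and 349 CPM in cells without, and Ikzf2 had 167 and 247 CPM, lower in each library. Ly6a, Ifi27l2a, Cxcr6 and Gzmm were higher with Cd8b1, with log2 ratios of 0.80 to 0.52. Klra7 differed little, with a log2 ratio of -0.15 and a range from -0.34 to 0.29. The median UMI number was 7303 with and 6612 without Cd8b1.

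A Leiden number was also deposited for each cell, and it placed 3281 Tcm cells in 1 number and 132 in the number that most Tn cells carry. These 132 cells had intermediate levels: Klrb1c at 112 CPM, Klra7 at 164 CPM, Cd8b1 at 464 CPM, Il7r at 75.0 CPM and Ccr7 at 51.6 CPM. Their median UMI number was 11033.5 against 6899 in the 3281 cells, and the part of doublets in them was not tested.

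Levels in Tcm cells were mostly even over the 4 libraries. Among 2523 genes of at least 50 CPM the median range over libraries was 0.19 on the log2 scale, and 11 genes (0.436%) had a range of at least 1. Leaving out ribosomal protein, TCR and predicted genes, the widest were Hist1h4d, Ly6a, Hist1h1e, Tsc22d3 and Gzmb, followed by Jun, Gclm, Fos, Atp5k and Tyrobp. Ly6a had 65.4, 82.3, 148 and 54.3 CPM in libraries 1 to 4. Library 3 was highest for Ly6a also in Tn cells (219, 214, 251 and 142 CPM) and in transitory Teff cells (514, 434, 834 and 261 CPM).

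The histone genes varied in the same order in Tcm and Tn cells. Hist1h4d had 88.7, 67.5, 207 and 49.5 CPM in Tcm cells and 93.0, 51.9, 173 and 35.5 CPM in Tn cells, highest in library 3 in both. Gclm, which takes part in glutathione synthesis, had 97.9, 46.5, 45.2 and 84.2 CPM in Tcm cells and 113, 47.9, 47.3 and 85.6 CPM in Tn cells. Atp5k had its lowest level in library 1 in both clusters. Tsc22d3, which glucocorticoids induce, had 48.4, 114, 94.3 and 87.6 CPM in Tcm cells, lowest in library 1. Gzmb, the granzyme B gene, had 113, 65.1, 89.7 and 149 CPM in Tcm cells and 73.5, 24.4, 29.0 and 52.3 CPM in Tn cells. Each library is 1 treatment and 1 pool, so treatment, pool and library cannot be told apart for any of these genes.

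**Figure D5:**
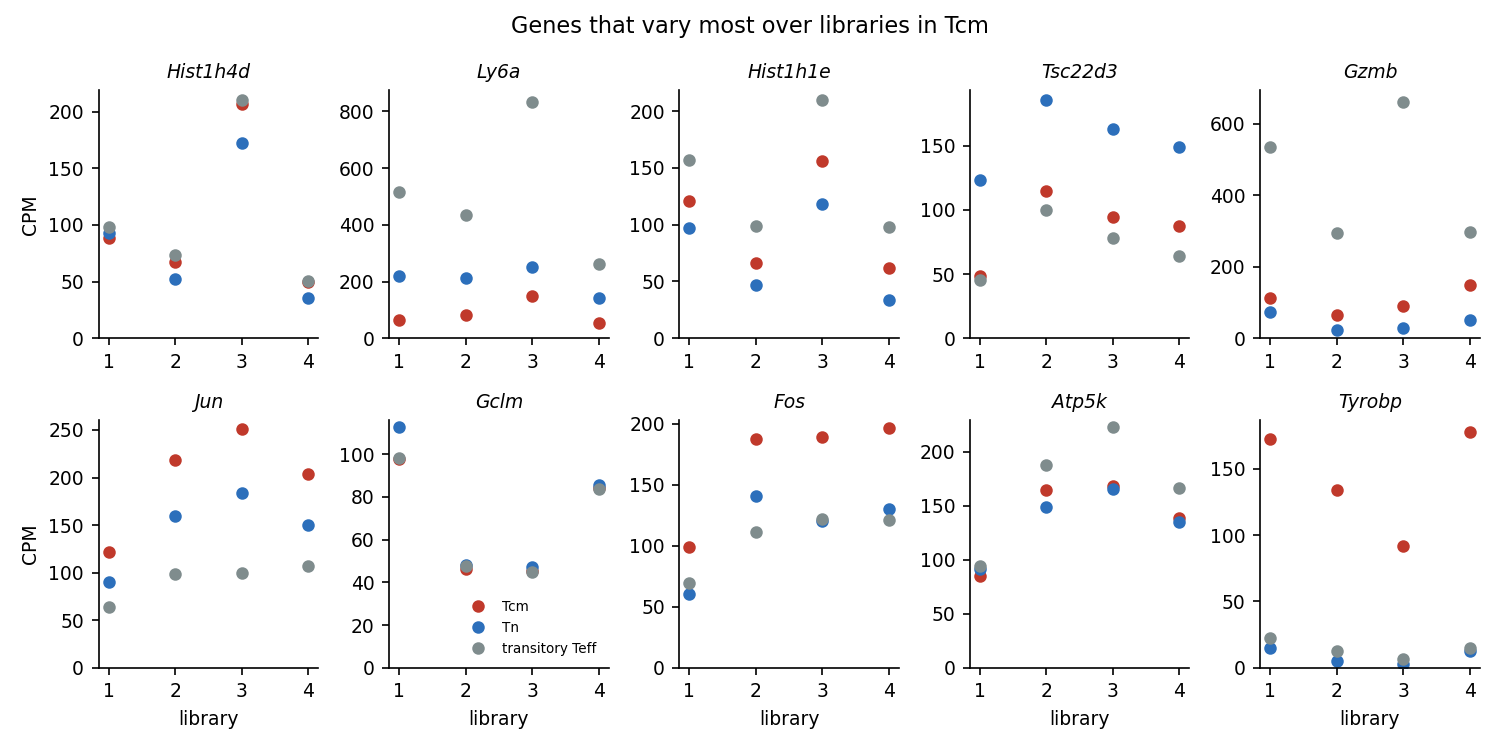
CPM in libraries 1 to 4 of the 10 genes with the widest range over libraries in Tcm cells, for Tcm (red), Tn (blue) and transitory Teff (grey) cells. The order of the libraries recurs across clusters for Hist1h4d, with library 3 highest, and for Gclm, with libraries 1 and 4 highest.

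The TCR table gave called TCR chains and measures of them. Transcripts of TCR variable genes are also in the expression counts, so variable gene usage may not be independent of the clusters. The measures were compared between Tcm and Tn cells over the 4 libraries with an exact sign-flip permutation test, two-sided. With 4 libraries its smallest p is 0.125, so no measure could pass 0.05. A TCR was called in 70.6%, 92.9%, 82.7% and 80.5% of Tcm cells and 75.2%, 92.9%, 89.5% and 84.9% of Tn cells. The share was lower in Tcm cells by a mean of 3.93 percentage points ± 2.85 (SD over libraries), lower in 3 of 4 libraries (exact permutation p = 0.25, adjusted p = 0.25 over 5 measures). Clonotypes of 2 or more cells of a library held 8.25%, 3.70%, 3.797% and 10.8% of Tcm cells with a TCR and 2.42%, 3.67%, 0.733% and 4.60% of such Tn cells. Tcm was higher in 4 of 4 libraries by 3.79 points ± 2.88 (exact permutation p = 0.125, adjusted p = 0.156), although the share also depends on the number of cells and library 2 differed by little. With clusters taken by Leiden number it was higher in 3 of 4 libraries, by 3.42 points (exact permutation p = 0.25). The Tcm cells with a TCR formed 2595 clonotypes within libraries, and the largest held 5 Tcm cells.

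The CDR3 of the TCR β chain, the loop that meets the peptide, was longer in Tcm cells in 4 of 4 libraries. Its mean length was 14.1 amino acids in Tcm and 14.0 in Tn cells, a difference of 0.119 ± 0.0634 (exact permutation p = 0.125, adjusted p = 0.156). The α chain CDR3 differed by 0.0243 ± 0.0301, and a pair of β chains was found in 6.45% ± 0.602 of Tcm and 5.24% ± 1.09 of Tn cells with a TCR (exact permutation p = 0.125 and adjusted p = 0.156 for both). The α chain difference was 0.00944 without library 2 and -0.00768 by Leiden number. The difference in the share with a pair of β chains, 1.21 points, was 0.674 without library 1, and by Leiden number it was 0.681 with 3 of 4 libraries higher (exact permutation p = 0.375). Of 14 β variable genes with at least 5 cells in each cluster and library, TRBV12-2 was used by 15.3%, 11.4%, 14.7% and 14.1% of Tcm cells and 11.1%, 7.14%, 3.68% and 11.4% of Tn cells, higher in 4 of 4 libraries by 5.57 points ± 3.74. TRBV29 was lower in 4 of 4 libraries by a mean of 1.77 points. The exact permutation p was 0.125 for both, and the adjusted p over 14 genes was 0.583. A separate entry, TRBV12-2+TRBV13-2, held a mean of 8.24% of Tcm and 9.88% of Tn cells, higher in Tcm cells in 1 of 4 libraries. Its chains were not added to TRBV12-2, so the direction above holds only for chains listed as TRBV12-2 alone. In the expression data, Trbv12-2 was 1 of the 61 genes higher than in Tn cells. Those transcripts come from the same cells as the chains, so this is not independent of TRBV12-2 usage.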

How the data were processed

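CD8+ T cells of 4 libraries were measured by 10x Genomics 5′ single-cell RNA and TCR sequencing. The authors processed reads with cellranger (Cell Ranger 7.00 and build mm10 per the submitters' processing notes), downsampled reads to even depth, and filtered cells on UMIs, mitochondrial RNA and T cell genes. The deposited cells held 2502 to 24983 UMIs and at most 14.5% mitochondrial UMIs. The deposited expression table holds raw, unscaled UMI counts of 17561 genes. For each cell the authors also deposited its UMI total as a count and its mitochondrial share as a fraction, with a cluster name and a Leiden number from Monocle3. TCR chains were combined by the authors with scRepertoire. Doublet removal is not given in the sources used here, and none was done. Library numbers could not be assigned to treatments, and 0 sample columns were left unmapped. Across libraries, 56 cell barcodes were shared.

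Gene symbols came from GENCODE M21 (GRCm38) for 17534 genes. UMIs were summed per cluster and library to CPM with Python 3.11.15, numpy 2.4.6, scipy 1.17.1 and pandas 2.3.3, and plotted with matplotlib 3.10.9. Ratios used 10 CPM added and a filter of 50 CPM. Calls, intervals and thinning (seed 7) were tested on simulated data. Intervals cover counting error only, and depth was 2502699 to 10601988 UMIs per cluster and library of Tcm and Tn. Nothing says that pools are replicates, and each library was a different treatment. The permutation p-values therefore measure only how consistent the difference of Tcm minus Tn within a library was over these libraries.

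The members and gene lists were chosen with earlier results of these data known. Named genes were the 5 markers of the cluster, the 15 highest and 15 lowest against Tn, 10 and 10 against transitory Teff, 10 highest against all other cells, 10 and 10 in the Ly49 division, the 10 with the widest library range, and up to 6 members per list; TCR, immunoglobulin, ribosomal, mitochondrial and predicted genes were left out of the ranking. Alternatives changed the added CPM, filter, weights, depth, centring, totals, cluster label and cells used, and left out each library. Some genes are not reported here.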

Additional observations from a re-analysis of the deposited data

How the results depend on the processing

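Against Tn, the 61 higher and 21 lower genes became 27 and 11 with 50 CPM added and 116 higher without a filter on low values. Against transitory Teff, 46 and 76 became 17 and 38 with 50 CPM added and 80 and 152 without the filter. Against all other cells, 38 and 138 became 13 and 67 with 50 CPM added, and 326 were lower without the filter. The median log2 ratio of the 5 markers, 3.25, was 3.64 with 1 CPM added, 2.27 with 50 CPM added, 2.75 by Leiden number, and 3.71 without cells that held a UMI of another cell type's marker, which were 65.1% of Tcm cells. Ly49 detection rose from 68.3% to 86.3% with all UMIs and was 65.8% without cells with other-type markers. The single gene of the Ly49 division became 3 genes with 1 CPM added, 0 after thinning and 2 in cells with a TCR, and 0 to 3 without single libraries; the 0 is without library 2, where Ly6a no longer passed. The Tcm share of 29.1% was 28.0% by Leiden number, 33.9% of cells with a TCR, and 25.5% (without library 4) to 30.3% without single libraries. The difference in α chain CDR3 length reversed to -0.00768 by Leiden number. The 2 β variable genes with 1 direction in each library became 4 without library 1 and 6 without library 3 (2 to 6 over single libraries left out). Where the alternative does not itself show the cause, the cause was not tested. Leaving out cells with shared barcodes, chosen after seeing the data, left the 6 gene counts against other cells as they were. No paired analysis was possible because, for the treatments, each is 1 library whose number the labels do not give; the TCR tests of Tcm against Tn were paired within libraries. Genes under 50 CPM are limited by depth.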
